A study of Rattus norvegicus with 10 samples.

Results

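The regions described here are stretches of the rat genome that were open in every adipose library and in some, but not all, of the muscle libraries. Open chromatin had been mapped by ATAC-seq, an assay in which the enzyme Tn5 inserts sequencing adapters where DNA is accessible. The 10 libraries came from nuclei of abdominal white adipose tissue (5) and of gastrocnemius muscle (5) of male Fischer 344 rats labelled 8 months old. Each library used about 75000 nuclei. The listed peaks of all libraries on chromosomes 1 to 20 were merged where they overlapped by at least 1 bp, and a region counted as called in a library that had a peak in it. Of 781477 merged regions, 12087 were called in all 5 adipose libraries and in 1 to 4 muscle libraries. They are 20.6% of the 58550 regions called in all 5 adipose libraries, of which 40670 were also called in all 5 muscle libraries and 5793 in none. They made up 3.66% of the 330041 regions that 2 or more libraries called. They covered 9.36 Mb.

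The rats carried no labelled treatment or genetic change, so tissue is the only contrast. Rats carry the numbers 1 to 5 in either tissue's titles. Per the design text, a sample was either a single animal or an aliquot pooled from 15 males, without saying which library is which. A pooled library averages over animals, and where libraries are aliquots of 1 pool their spread is technical. The p-values given below measure the spread between these libraries.

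White adipose tissue stores lipid in adipocytes, and gastrocnemius is a limb muscle built of multinucleated fibres. Both tissues also hold blood vessels, fibroblasts and immune cells, and muscle can hold adipocytes between its fibres. An open region marks DNA cleared of nucleosomes, as at promoters, enhancers and insulators, and a bulk library averages it over all nuclei in the sample. Fewer nuclei with an open region and a less open region in each nucleus therefore cannot be told apart here. No annotation or genome of rn6, the build of the files, was used. Regions are therefore given by position, without genes or sequences, and the tissue labels could not be checked against marker genes.

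The lists set the terms of the comparison. Adipose lists held 243928 to 259149 peaks and muscle lists 164283 to 188890. The lowest −log10 p in a list was 3.26 to 4.27 in adipose and 2.00 in each muscle list. A muscle library without a call thus had no peak there even at the more lenient limit. Before peaks sharing an interval were joined, adipose lists held 298639 to 299093 rows and muscle lists 227958 to 251869. Whether the adipose lists end at a p limit or at a number of rows is not stated, so the 2 limits may differ in kind. The number of reads per library is not known from the sources used. Adipose replicates 2, 3 and 4 stood apart on the sex chromosomes, with 2.78% to 3.47% of their peaks on X and 0, 0 and 1 peaks on Y, although labelled male. Adipose replicates 1 and 5 had 1.07% and 1.45% on X and 31 and 45 peaks on Y. Muscle libraries had 1.41% to 1.74% on X and 16 to 24 peaks on Y. With replicates 1 and 5 as the only adipose libraries 22864 regions met the rule, and with replicates 2, 3 and 4 alone 19359 did. Both settings ask for fewer adipose libraries and so admit more regions by construction.

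Regions called in 1 or in 4 muscle libraries outnumbered those called in 2 or 3. Of the 12087, 2929 (24.2%) were called in 1 muscle library, 2451 (20.3%) in 2, 2666 (22.1%) in 3 and 4041 (33.4%) in 4. All 30 possible combinations of muscle libraries occurred, but unevenly. The most frequent, muscle replicates 1, 3, 4 and 5 without replicate 2, made up 2160 regions (17.9%). The next was muscle replicate 1 alone, with 1036 (8.57%), followed by replicates 1, 2, 3 and 5 with 708 (5.86%). The least frequent was replicates 2 and 4, with 53 regions (0.438%).

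**Figure D1:**
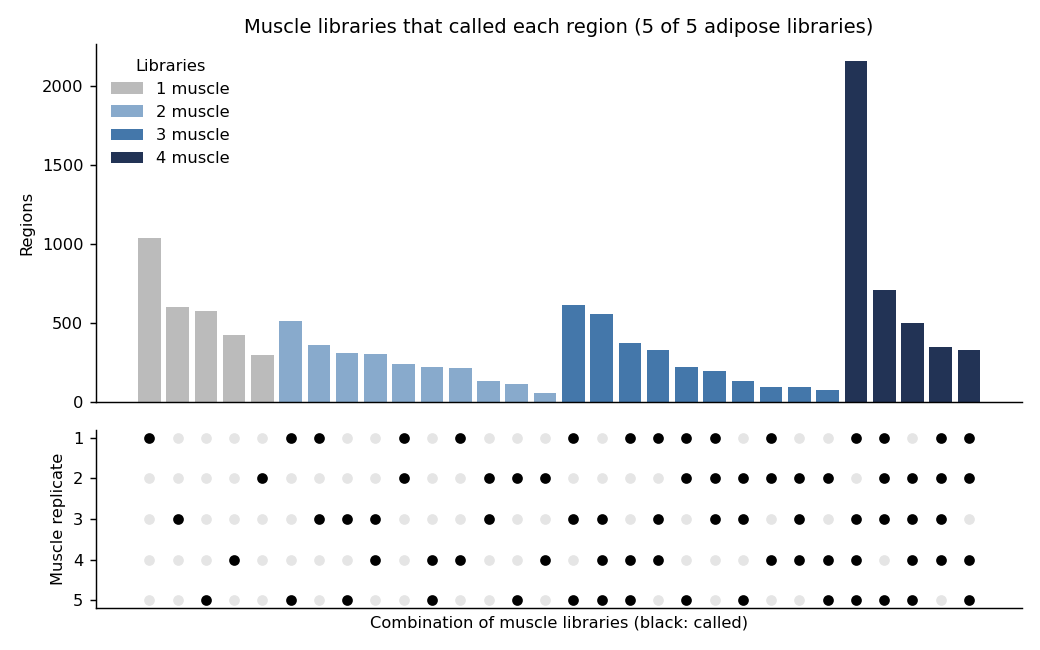
Number of regions (y axis) for each combination of muscle libraries (black dots, rows are muscle replicates 1 to 5) among regions called in all 5 adipose libraries, with bar colour giving the number of muscle libraries. The combination lacking only muscle replicate 2 is the tallest bar at 2160 regions, ahead of muscle replicate 1 alone at 1036.

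Muscle replicates 1, 3, 4 and 5 called these regions far more often than muscle replicate 2 did. Of the 12087, 7721 (63.9%) were called in replicate 1, 3512 (29.1%) in replicate 2, 7329 (60.6%) in replicate 3, 6049 (50.0%) in replicate 4 and 7382 (61.1%) in replicate 5. Over all 209222 regions called in 1 to 4 muscle libraries, whatever the adipose count, the shares were 40.0%, 29.8%, 34.5%, 29.6% and 32.9% in the same order. Replicate 2 was close in value to its overall share, and the other 4 libraries were above theirs. The sets differ in calls per region, however. Of the 209222 regions 132251 were called in 1 muscle library, against 2929 of the 12087, which by itself raises the shares here. An unchanged share is thus low for this set. In regions called in 4 muscle libraries, replicate 2 was missing in 53.5% here and 28.7% over all.

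The split between the muscle libraries followed the number of adipose libraries. Among regions called in 1 to 4 muscle libraries, replicate 2 called 29.8% of those with no adipose call, 30.1%, 29.5%, 29.7% and 29.3% of those with 1, 2, 3 and 4 adipose calls, and 29.1% with 5. Replicate 1 went from 33.3% with none to 63.9% with 5, replicate 3 from 29.7% to 60.6%, replicate 4 from 26.8% to 50.0% and replicate 5 from 26.3% to 61.1%. The number of muscle libraries per region was not held fixed in these shares, and they rest on calls, which the selection used, so no test was made.

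Among the 4041 regions called in 4 muscle libraries, replicate 2 was the missing one in 2160 (53.5%). Replicate 4 was missing in 708 (17.5%), replicate 1 in 499 (12.3%), replicate 5 in 348 (8.61%) and replicate 3 in 326 (8.07%). Over all 20540 regions called in 4 muscle libraries the missing library was replicate 1 in 22.5%, replicate 2 in 28.7%, replicate 3 in 12.4%, replicate 4 in 23.2% and replicate 5 in 13.2%. With no adipose call replicate 2 was missing in 12.9% of 6970, the lowest share of the 5 libraries, and with 1, 2, 3 and 4 adipose calls in 20.6%, 25.0%, 33.3% and 42.0%. The missing shares of a class add up to the whole, so one rises as the others fall.

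**Figure D2:**
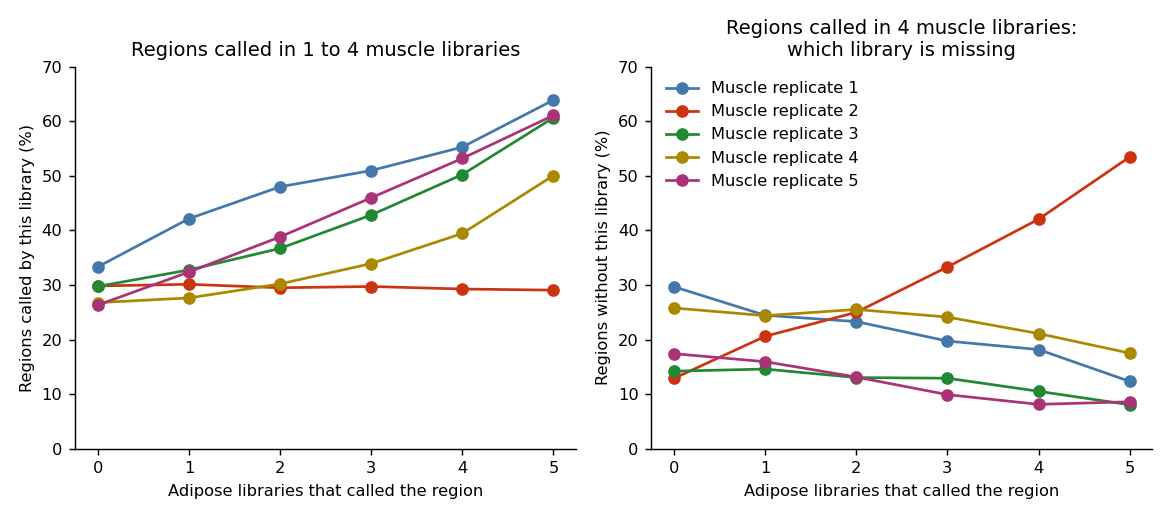
Left, regions called in 1 to 4 muscle libraries, with the share called by each muscle library (y axis, %) against the number of adipose libraries that called them (x axis); right, regions called in 4 muscle libraries, with the share that lack each one. On the left muscle replicate 2 stays between 29.1% and 30.1% while the other 4 rise to 50.0% or more; on the right its line goes from 12.9% to 53.5%.

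The lists also differed in length, and the part of list length and read depth in these shares was not tested. On chromosomes 1 to 20 the muscle lists held 186204, 161606, 172882, 167735 and 169594 peaks (replicates 1 to 5), the fewest in replicate 2. With each list limited to its 50000 strongest peaks, 3499 regions met the rule. Of the 1016 called in 4 muscle libraries, 49.7% lacked replicate 2, and among regions called in 4 muscle libraries and no adipose library 4.07% did. With peaks of a −log10 q of at least 5 alone, called strong below, the shares were 60.0% of 1713 and 12.1%.

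Taken over all regions it called, muscle replicate 2 also had the lowest median rank of the muscle libraries. Fold enrichment is the authors' own value for a peak over the caller's background, and was turned into a percentile within each list. The median percentile of the regions called was 44.4 in muscle replicate 1, 34.5 in replicate 2, 40.8 in replicate 3, 38.0 in replicate 4 and 38.4 in replicate 5. Among regions called in 3 and in 4 muscle libraries replicate 2 was lowest too, at 31.3 and 35.9. Among those called in 1 it was not, at 29.4 against 22.5 in replicate 5 and 26.6 in replicate 3. The share of all regions called that had a strong peak was 40.0%, 22.0%, 38.3%, 27.7% and 57.7% in replicates 1 to 5, beside 52.7%, 55.2%, 56.2%, 52.3% and 69.2% of all peaks in those lists. In regions called in 1 or 2 muscle libraries the lowest strong share was that of replicate 4, at 5.43% and 11.2%, with replicate 2 at 5.80% and 13.4%.

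Ranks in regions called in all 10 libraries, which the selection left out, were compared between the muscle libraries. Each library's percentile was set against the mean of the other 4 muscle libraries, in 5 equal bins of regions ordered by how far adipose ranked above those 4. In the bin where adipose led most (8134 regions), the median difference was 8.48, 4.43, 1.88 and 2.67 percentile points for replicates 1, 3, 4 and 5 and -4.75 points for replicate 2. The ordering uses the same 4 libraries as the comparison, so differences above 0 are built in there, by an amount that was not measured. The values are a description of how the libraries differ from one another. In the bin where muscle led most the differences lay between -0.483 and 0.608 points for all 5. Differences below 0 are built in there in the same way, also by an amount that was not measured.

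In most cases the muscle library without a call had no peak just beside the region either. Of the 2160 regions lacking only muscle replicate 2, 434 (20.1%) had a peak of that library within 1 kb. The share was 26.9%, 28.5%, 27.7% and 23.3% for regions lacking only replicate 1, 3, 4 or 5. Replicate 2 had the fewest peaks of the muscle lists (161606 on chromosomes 1 to 20), which makes a nearby peak less likely. The share beside regions outside this set was not measured, so these shares are not read as particular to it. In the 2160 regions the other muscle libraries ranked at a median percentile of 52.0, 49.3, 45.7 and 45.5 (replicates 1, 3, 4 and 5), the middle of their lists. The adipose libraries ranked at 78.6, 77.3, 83.1, 80.7 and 82.3 there.

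The regions were well above the middle of the adipose lists and below it in muscle. In the adipose lists the median percentile was 74.4, 74.9, 78.1, 76.4 and 76.6 (replicates 1 to 5), a mean of 76.1 ± 1.47 (SD, n = 5), and in muscle, where called, 39.2 ± 3.67 (n = 5). The tissues did not overlap in this measure. Median fold enrichment was 3.89 ± 0.276 in adipose and 2.96 ± 0.239 in muscle. In 5637 regions (46.6%) every muscle peak ranked below every adipose peak, beside 12230 (30.1%) of the regions called in all 10 libraries. Fewer muscle peaks make this easier to meet. The share was 58.7%, 47.6%, 43.7% and 39.3% for regions in 1, 2, 3 and 4 muscle libraries. These values went into the choice of the regions and are a description.

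Rank rose with the number of muscle libraries in both tissues. The median adipose percentile was 71.3 ± 1.12 for regions in 1 muscle library, 74.6 ± 1.40 for 2, 77.2 ± 1.53 for 3 and 78.8 ± 1.98 for 4 (SD, n = 5 each). Just outside the rule it was 71.0 ± 1.82 in regions with no muscle call and 89.6 ± 0.536 in those called in all 10 libraries. In muscle it was 27.9 ± 3.45, 32.2 ± 3.87, 37.6 ± 4.89 and 44.5 ± 5.53 for 1 to 4 libraries, and 80.9 ± 1.51 for 5. Regions called in 4 muscle libraries were thus closer in rank to those called in 1 than to those called in all, and regions called in 1 ranked like the adipose-only ones in adipose.

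**Figure D3:**
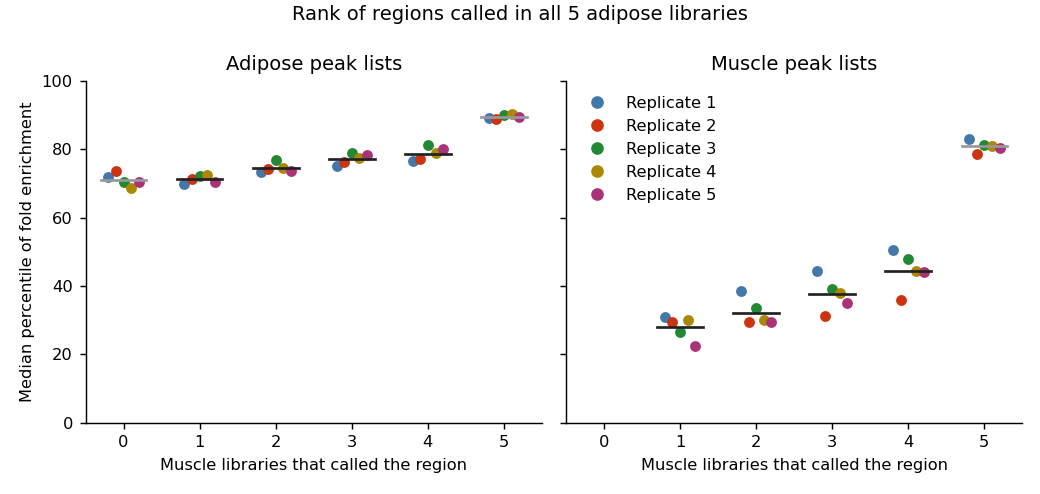
Median percentile of fold enrichment within each peak list (y axis) for regions called in all 5 adipose libraries, by the number of muscle libraries that called them (x axis). Points are libraries and lines their mean; muscle means rise from 27.9 to 44.5 over 1 to 4 libraries and stand at 80.9 for 5.

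Strong peaks followed the same order, and adipose replicate 1 was the weak end in adipose. The share of the regions with a strong peak was 44.7% in adipose replicate 1 and 65.0%, 78.1%, 74.6% and 71.0% in replicates 2 to 5, where 20.2%, 33.9%, 37.2%, 38.5% and 33.7% of all peaks on chromosomes 1 to 20 were strong. In 3012 regions (24.9%) the peak was strong in all 5 adipose libraries and in 363 (3.00%) in none. Strong in all 5 were 17.5% of the regions with no muscle call and 65.4% of those called in all 10 libraries. At least 1 muscle library had a strong peak in 6689 (55.3%), rising from 14.3% of regions in 1 muscle library to 87.2% of those in 4. A peak strong in all 5 adipose libraries and in no muscle library was found in 951 regions (7.87%). That share lay between the flanking classes, at 17.5% with no muscle call and 0.096% when called in all 10.

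The open stretch was wider in adipose than in muscle. In a library with a call, peaks covered a median of 429 ± 33.1 bp of a region in adipose and 262 ± 19.3 bp in muscle (SD, n = 5 each), and no muscle library (236 to 281 bp) reached the lowest adipose one (374 bp). In regions called in all 10 libraries the medians were 651 ± 53.2 bp in adipose and 722 ± 21.4 bp in muscle. Merged regions had a median length of 704, 699, 716 and 741 bp for 1, 2, 3 and 4 muscle libraries, 666 bp for none and 1043 bp for 5. The longest, on chromosome 6 at 139443610 to 139446437, was 2828 bp and was called in 4 muscle libraries. An adipose library had 1.47 ± 0.0488 summits per region and a muscle library 1.23 ± 0.0239.

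The strongest muscle summit nearly always lay within the stretch open in adipose, as it did in regions called in all 10 libraries. Of 31993 strongest muscle summits, 98.4% fell inside the span of the strongest adipose peaks and 68.3% inside the core common to all 5 of them. In regions called in all 10 libraries the share inside the span was 98.3%. Regions were built from overlapping peaks, so a high share inside the span is largely set by construction. Such a core existed in 9969 regions (82.5%), with a median length of 220 bp. The share of muscle summits inside the core was 53.6%, 62.7%, 69.0% and 72.3% for regions in 1, 2, 3 and 4 muscle libraries, and 83.3% for those in 5. The median range of the 5 adipose summits narrowed in the same order, from 180 bp through 149, 130 and 116 bp to 68 bp. In regions with no muscle call it was 165 bp.

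Summit positions did not enter the rule. For each pair of libraries the distance between the strongest summits was taken over the regions both called. Its median averaged 40.8 bp over adipose pairs (35 to 49 bp), 41.0 bp over muscle pairs (31 to 55 bp) and 48.3 bp over pairs from different tissues (34 to 68 bp). The ranges overlapped. Pairs from different tissues were 7.38 bp farther apart than pairs of the same tissue (two-sided exact permutation of the tissue labels, p = 0.00794, the smallest this design allows). The rule treats the tissues unequally, so that adipose pairs rest on all 12087 regions, pairs from different tissues on 3512 to 7721 and muscle pairs on 1483 to 4976. The labels are therefore not exchangeable in these regions, the selection can set part of the difference, and the p is not read as a test of tissue. The difference was 3.77 bp with strong peaks alone, 3.96 bp with the 50000 strongest peaks and 13.4 bp with the mean of all summits (exact permutation p = 0.00794 each).

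In regions called in all 10 libraries, where each pair rests on the same 40670 regions, pairs from different tissues averaged 25.9 bp, adipose pairs 24.2 bp (21 to 29 bp) and muscle pairs 12.2 bp (11 to 13 bp). Different-tissue pairs were 7.72 bp farther apart than same-tissue pairs (two-sided exact permutation p = 0.00794). There the mean of the different-tissue pairs was close to that of the adipose pairs and well above that of the muscle pairs.

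Muscle and adipose pairs had near-equal means in these regions, whereas in regions called everywhere muscle summits were the more tightly placed. The near-equal means rest on unlike sets of regions. Adipose pairs used all 12087, and muscle pairs 1483 to 4976, which leave out regions called in 1 muscle library. Adipose summits spread less where more muscle libraries called, as given above, so equal scatter is not shown. Muscle pairs averaged 41.0 bp here and 12.2 bp there, and adipose pairs 40.8 and 24.2 bp. The muscle library farthest from adipose was replicate 2, at a mean of 61.8 bp (56 to 68 bp) from the adipose libraries. Replicates 1, 3, 4 and 5 averaged 48.8, 45.2, 47.4 and 38.2 bp. Weaker peaks accompany the wider scatter, as given above, and the part of peak strength in it was not tested.

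**Figure D4:**
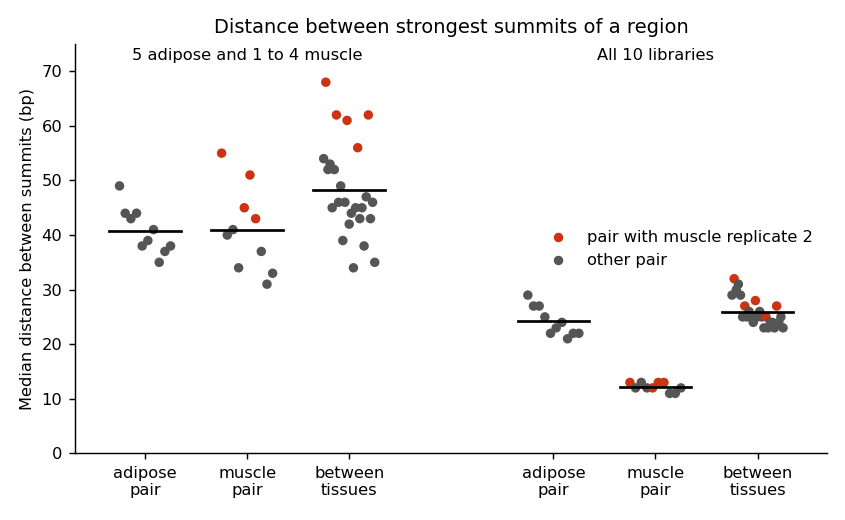
Median distance in bp between the strongest summits of a region for each pair of libraries (points), by kind of pair, with the mean as a line, for regions variable in muscle (left) and regions called in all 10 libraries (right). Muscle pairs average 41.0 bp on the left and 12.2 bp on the right, and pairs with muscle replicate 2 (red) lie at the top of the between-tissue points on the left.

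Some of the regions had a high adipose rank in every library, and in 3 of those named 1 muscle library had a fold enrichment near theirs, though a lower rank. The first by lowest adipose percentile, on chromosome 19 at 15047650 to 15048981 (1332 bp), had fold enrichments of 16.1, 16.1, 14.6, 14.3 and 17.2 in adipose replicates 1 to 5. In muscle it had 12.7 in replicate 1, 5.17, 3.55 and 3.79 in replicates 2, 3 and 4 and no peak in replicate 5. The muscle libraries thus ran from a percentile of 93.6 to no call at all. On chromosome 20 at 22711746 to 22712594 adipose had 6.99, 10.1, 12.6, 9.63 and 8.77, muscle replicate 1 had 12.7 and replicate 4 had 2.23, and the other muscle libraries had none. The replicate 4 peak was weak, with a −log10 q of 0.816 and a percentile of 12.5. On chromosome 4 at 7766744 to 7767125 adipose had 7.92, 11.9, 10.3, 11.8 and 10.2, with 9.49 in muscle replicate 1 and 5.35 in replicate 4. In these 3 regions muscle replicate 1 was the highest muscle library. Its fold lay below the adipose range on chromosome 19, just above it on chromosome 20 and within it on chromosome 4. Its percentile of 93.6, 93.6 and 88.5 was below the lowest adipose one of 99.3, 95.9 and 97.0.

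In the other named regions of high adipose rank each muscle fold was below the lowest adipose one. On chromosome 6 at 139197998 to 139198630 adipose had 14.4, 13.9, 13.7, 17.9 and 12.8, and muscle had 5.19, 3.73 and 2.68 in replicates 1, 3 and 4. On chromosome 2 at 194518997 to 194519724 adipose averaged 13.1 ± 1.38 (SD, n = 5), and muscle had 7.68, 4.67, 4.97 and 2.80 in replicates 1, 2, 3 and 5. On chromosome 12 at 441673 to 442014 adipose averaged 12.5 ± 2.54, with 4.03, 3.50, 2.84 and 3.79 in muscle replicates 1 to 4. Ranks within the muscle lists varied widely, from a percentile of 72.2 to 30.0 in the first of these 3 regions and from 83.8 to 27.1 in the second. On chromosome 4 at 145413600 to 145414396 adipose averaged 11.9 ± 2.46 and muscle replicates 1, 3 and 4 had 3.65, 5.05 and 4.26. On chromosome 18 at 64771711 to 64772757 adipose averaged 10.3 ± 2.06 and muscle replicates 1, 3 and 5 had 2.88, 3.55 and 4.12. On chromosome 20 at 31935548 to 31936418 the values were 10.1 ± 1.76 in adipose and 3.73 and 3.63 in muscle replicates 3 and 5. Muscle stayed below the lowest adipose library in each of these 3 as well.

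The regions of highest adipose rank with a single muscle call showed it at a middle or low rank. On chromosome 5 at 116093231 to 116094243 adipose averaged 9.99 ± 1.88 (SD, n = 5) and muscle replicate 1 alone had a peak, of 3.65 (percentile 56.7). On chromosome 11 at 67036708 to 67037455 the adipose mean was 8.91 ± 1.64 and muscle replicate 3 had 2.31 (percentile 19.2), a weak peak with a −log10 q of 1.285. On chromosome 9 at 87051853 to 87052499 it was 8.91 ± 2.38, and muscle replicate 3 had 3.37 (percentile 51.3).

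**Figure D5:**
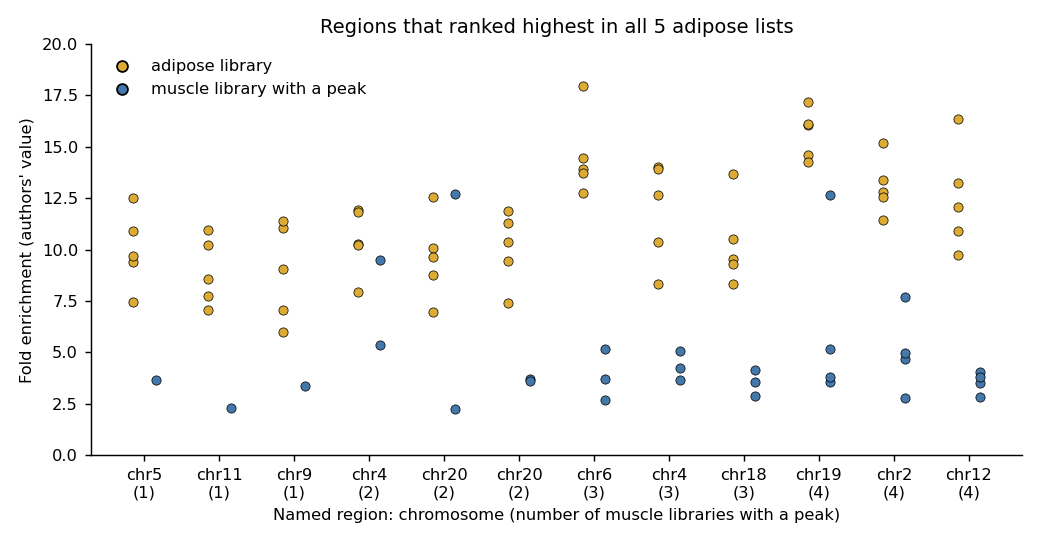
Fold enrichment (authors' value, y axis) of the 12 regions ranked highest in all 5 adipose lists, 3 for each number of muscle libraries (in brackets on the x axis), with 1 point per library. Adipose points lie above the muscle points except in a chromosome 4 and a chromosome 20 region with 2 muscle libraries, where muscle replicate 1 reaches 9.49 and 12.7.

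Regions high in the muscle libraries that called them were rare. A peak at or above the 75th percentile of a muscle list was found in 553 of the 12087 (4.58%). There were 3, 16, 79 and 455 of them among regions in 1, 2, 3 and 4 muscle libraries. Of the 553, 62.2% lacked muscle replicate 2, against 70.9% of all 12087. Most of the 553 had 4 muscle calls, however, so these 2 shares do not compare like with like. Among regions in 4 muscle libraries replicate 2 was missing in 60.7% of the 455, against 53.5% of all 4041. Among regions in 3 the direction was the reverse, and in 1 and 2 it was the same on few regions. The highest by lowest muscle percentile, on chromosome 15 at 39682175 to 39683710 (1536 bp), had 12.1, 10.9, 8.70 and 11.7 in muscle replicates 2 to 5 and no peak in replicate 1. Adipose had 5.74, 8.06, 8.03, 6.26 and 6.94 there. On chromosome 1 at 38427436 to 38429050 (1615 bp) muscle had 10.5, 11.5, 10.7 and 10.4 in replicates 2 to 5, again with none in replicate 1, and adipose 5.78, 5.35, 2.92, 4.01 and 3.75. In fold, all 4 muscle libraries with a call were above every adipose library in both regions. In rank they were not: the muscle percentiles were 85.9 to 93.0 and the adipose ones 92.9 to 95.5 on chromosome 15, and 83.0 to 91.1 against 38.3 to 93.8 on chromosome 1.

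The remaining regions named for muscle had 1 to 3 calls. On chromosome 8 at 12460004 to 12460794 muscle replicate 5 alone had 9.27 (percentile 79.8), and adipose averaged 4.85 ± 0.827 (SD, n = 5). On chromosome 5 at 24764141 to 24764415 muscle replicate 1 alone had 6.19, against 4.83 ± 0.838 in adipose. On chromosome 5 at 81971174 to 81971656 muscle replicates 3 and 4 had 6.67 and 6.72, against 3.77 ± 1.03. On chromosome 2 at 266187077 to 266187811 muscle replicates 1 and 5 had 5.38 and 9.07, against 6.23 ± 1.23. Muscle replicates 1, 3 and 4 had 5.69, 6.32 and 7.08 on chromosome 7 at 37325115 to 37325825, and adipose 3.45 ± 0.565. They had 6.52, 5.73 and 9.82 on chromosome 11 at 65855620 to 65856744, where adipose averaged 4.70 ± 1.34. Replicate 2 called none of these 6 regions. Among the 12087, however, it was missing in 89.997%, 78.091% and 69.955% of those in 1, 2 and 3 muscle libraries. Its absence is therefore not read as particular to the 6 regions.

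The regions lay closer to regions called in all 10 libraries the more muscle libraries called them. The median distance was 22.6, 16.0, 12.9 and 11.0 kb for 1, 2, 3 and 4 muscle libraries, between 27.1 kb for none and 9.54 kb from one region called in all 10 to the next. The share within 5 kb was 16.6%, 21.9%, 24.1% and 27.8% in that order. Of these regions 21.5% had another one of them within 10 kb, and the median distance to it was 38.2 kb. A region of this kind also lay within 10 kb of 13.3% of the regions with no muscle call. For regions called in all 10 this share was 15.6%. Those shares do not give the spacing within the other classes, and regions called in all 10 lay closer to their own kind (9.54 kb). Chromosome 2 held 11.3%, 10.4%, 8.48% and 8.93% of those in 1, 2, 3 and 4 muscle libraries, and chromosome 10 held 3.28%, 4.04%, 5.55% and 5.27%. The flanking classes lay at 12.2% (no muscle call) and 7.19% (all 10) on chromosome 2 and at 3.56% and 7.02% on chromosome 10. All 12087 together had 9.71% on chromosome 2 and 4.6% on chromosome 10. Regions that 2 or more libraries called had 10.3% and 4.33% there, so the set as a whole lay near that background. The other chromosomes are not given here.

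A minority was packed into a few megabases, and there the muscle libraries took another order. Windows of 1 Mb with at least 1 of these regions numbered 2353, with a median of 4 regions, and 25 windows held 20 or more, 670 regions in all (5.54%). In these 25 windows muscle replicate 2 called 56.6% of the regions, against 27.4% elsewhere, and replicate 5 called 34.5%, against 62.6%. Replicate 1 called 75.5% and 63.2%, replicate 3 62.7% and 60.5%, and replicate 4 39.3% and 50.7%. In these windows replicate 2 called more of the regions than replicates 4 and 5 did, and elsewhere fewer. The windows were picked on the number of regions after the values were seen, and no test was made.

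The fullest window, on chromosome 1 at 147000001 to 148000000, held 45 of these regions among 68 called in all 5 adipose libraries. Muscle replicates 1 to 5 called 38, 25, 27, 21 and 9 of the 45. On chromosome 1 at 76000001 to 77000000 there were 35, of which muscle replicates 1 to 5 called 23, 16, 28, 2 and 8, and just 2 regions of the window were called in all 10 libraries. On chromosome 2 at 194000001 to 195000000 there were 31, called 27, 26, 20, 6 and 3 times. In these 3 windows replicates 4 and 5 made the fewest calls. On chromosome 6 at 140000001 to 141000000 there were 36, called 26, 19, 25, 15 and 13 times, and 27 of them lay between 140000001 and 140200000, 12 and 15 in its first 2 stretches of 100 kb. The window on chromosome 16 at 21000001 to 22000000 differed, with 32 among 125 regions called in all 5 adipose libraries, 89 of them called in all 10, and 22, 23, 18, 20 and 19 calls in muscle replicates 1 to 5.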

How the data were processed

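ATAC-seq peak lists of 5 adipose and 5 muscle libraries were used, 1 list per library. Per the submitters' processing notes, the build is rn6 and the tools were MACS2, Bowtie2, Picard, Trimmomatic and FastQC. Versions, settings, transposase shift and duplicate handling are not stated there or in the labels. The authors deposited, for each peak, a score (the −log10 p times 10 without decimals, in nearly all rows), a fold enrichment over the caller's background, which is a ratio, and the −log10 p-value and −log10 q-value. The read depth is unknown, so no counting interval is given for peaks.

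Rows sharing an interval were counted as 1 peak, with the values of the row of highest −log10 p and the highest fold. Peaks on chromosomes 1 to 20 were merged at an overlap of 1 bp or more. Percentiles of fold were taken within each whole list. A strong peak has a −log10 q of at least 5. Calls, folds, q and widths chose the regions and were not tested; summit distances were compared with a two-sided exact permutation of the tissue labels, read as a test only in regions called in all 10 libraries, where the selection treats the tissues alike. Named regions are, for each number of muscle libraries, the 3 with the highest lowest percentile in adipose and the 2 with the highest lowest percentile over the muscle lists calling them. The regions and measures were chosen with earlier results of these data known. The code, tested on simulated data, returned all planted regions. Across regions called in all 10, the deviations of same-numbered libraries correlated at -0.0081 to 0.0766 and those of other pairs at -0.0684 to 0.0609. Correlations between different tissues cannot show whether a number is the same animal. Numbers were not taken as pairs in the main permutation, and one within same-numbered pairs is given below. For regions called in all 10 libraries no such permutation is given. Alternatives were strong peaks, a common −log10 p floor of 4.27, the 50000 strongest peaks, 500 bp around summits, 50% cover, chromosome X, subsets of adipose libraries and leaving out each library. Gene lists and annotation, planned for an rn6 annotation, were not used. Python 3.11.15, NumPy 2.4.6, pandas 2.3.3, SciPy 1.17.1 and matplotlib 3.10.9 were used.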

Additional observations from a re-analysis of the deposited data

Results flagged for a closer look

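In 55 sets of values from the 5 libraries of a tissue, the extreme libraries were set against the next one, and 2 of them were separated by over 0.71 of the set's range. Chance alone sets off about 1 set in 20. Muscle replicate 2 called 1881 of the 4041 regions called in 4 muscle libraries, where the other muscle libraries called 3333 to 3715. Adipose replicate 3 had a fold enrichment of 8.3802 on chromosome 2 at 266187077 to 266187811, above the other adipose libraries at 5.35 to 5.97.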

How the results depend on the processing

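The number of regions meeting the rule, 12087, was 4686 with strong peaks alone, 3499 with the 50000 strongest peaks per library, 5984 where peaks had to cover 50% of a region, 22864 with adipose replicates 1 and 5 alone and 19359 with adipose replicates 2, 3 and 4 alone; fewer peaks or fewer adipose libraries change it by construction. It stayed within 1.5 times in the other 13 of 18 settings and ran from 9660 (without muscle replicate 2) to 15825 with 1 replicate left out. The share of regions in all but 1 muscle library that lacked muscle replicate 2, 53.5%, was 60.0% with strong peaks, 56.2% at the common floor, 49.7% with the 50000 strongest peaks, 42.5% at 50% cover, 49.1% with adipose replicates 1 and 5 and 48.7% with adipose replicates 2, 3 and 4. It ran from 51.5% to 61.8% with another replicate left out; these settings were added after seeing the data. The summit difference of 7.38 bp, whose p is not free of the selection, kept its direction in all 21 settings. It ran from 6.58 to 8.45 bp with 1 replicate left out (exact permutation p = 0.00794 each). The exact permutation p was under 0.05 in 20 of the 21 settings. Every setting kept the unequal selection of the tissues, so this count is not read as support for a tissue difference. The difference was 3.77 bp with strong peaks, 3.96 bp with the 50000 strongest peaks and 13.4 bp with the mean of all summits, and the cause was not tested. With the replicate block, the tissue labels permuted within same-numbered pairs, it was 7.38 bp with an exact permutation p of 0.0625, the smallest 5 pairs allow. Depth in reads is unknown, so how far a missing call reflects depth was not tested.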
